A study of Homo sapiens with 4 samples.

Results

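Open chromatin was examined at 8 genes that encode proteins of the specific and gelatinase granules of neutrophils: LTF, CAMP, LCN2, MMP8, MMP9, OLFM4, CRISP3 and ARG1. These were 8 of 20111 protein-coding genes of the annotation. For each gene, the ATAC-seq peaks that overlapped its body or the 50 kb on either side were taken from the peak lists of 4 libraries, and overlapping peaks were merged into regions. The 8 windows held 55 of the 78063 regions, and all 8 genes had at least 1 peak in their window.

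Neutrophils fill their granules in order as they mature. The azurophil granules, which carry myeloperoxidase and elastase, are made by promyelocytes, the specific granules by myelocytes and metamyelocytes, and the gelatinase granules by band and segmented cells. The genes of the later granules are commonly used as signs of maturation beyond the promyelocyte, and the factors C/EBP-epsilon, C/EBP-alpha and PU.1 are known regulators of them.

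HL-60 is a human line, labelled as from an acute promyelocytic leukemia, that matures along the granulocyte lineage when given all-trans retinoic acid (ATRA), the ligand of the retinoic acid receptors. The ATRA-treated cells received 1 µM ATRA in ethanol for 4 days and the control cells the same volume of ethanol, and each group had 2 replicates. The labels name no genetic change, and all libraries come from 1 cell line. ATAC-seq, in which the Tn5 transposase inserts adapters into open chromatin, gives intervals called as peaks, and a peak near a granule gene is not a measurement of its RNA.

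The libraries had 42081 to 63541 peaks. ATRA replicate 2 had the most peaks and the widest ones, with a median width of 416 bp against 291 to 328 bp elsewhere, and it covered 31.6 Mb against 16.3 to 17.5 Mb. The lists hold no read counts, so the depth of each library was unknown, and its part in this difference was not tested. Of 6 myeloid markers, SPI1, CD33 and LYZ had a promoter peak in all 4 libraries, MPO in ATRA replicate 2 and control replicate 2, CSF3R in control replicate 1, and ELANE in none. A promoter here runs from 1 kb upstream to 100 bp downstream of a transcription start site (TSS). Of the markers of other cell types reported here, COL1A1 had a promoter peak in all 4 libraries, CD79A in ATRA replicate 2, and CD3D, CD3E, ALAS2 and EPCAM in none.

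Selected regions are shown as 200 bases about their centre, with a shorter stretch at CAMP that stops where its transcript starts. All are the plus strand of the reference genome (GRCh37, also named hg19), 5′ to 3′, not sequence read from these cells. Capitals mark matches to searched motifs, and a sequence with no capitals held none. Shown first are regions 43.7 kb downstream of the MMP8 TSS (chr11:102551859-102552058), 3.5 kb upstream of MMP9 (chr20:44633947-44634146) and 20.8 kb upstream of OLFM4 (chr13:53582069-53582268). They are among 9 regions that had a peak in both ATRA libraries and in neither control library. The other regions of this kind at MMP8 held no match, and the other one at MMP9 held a CTCF match. The MMP8 stretch has 3 CEBP matches and 1 RUNX match, and the MMP9 stretch has 1 PU.1 match.
MMP8, 43.7 kb downstream: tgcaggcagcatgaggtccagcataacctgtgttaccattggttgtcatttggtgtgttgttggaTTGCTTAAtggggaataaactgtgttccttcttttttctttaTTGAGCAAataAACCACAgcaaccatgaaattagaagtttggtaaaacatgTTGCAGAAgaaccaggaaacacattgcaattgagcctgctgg
MMP9, 3.5 kb upstream: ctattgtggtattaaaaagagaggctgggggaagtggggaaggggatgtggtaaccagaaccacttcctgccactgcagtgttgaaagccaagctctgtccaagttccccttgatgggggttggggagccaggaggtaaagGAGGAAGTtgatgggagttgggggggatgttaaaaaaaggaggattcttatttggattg
OLFM4, 20.8 kb upstream: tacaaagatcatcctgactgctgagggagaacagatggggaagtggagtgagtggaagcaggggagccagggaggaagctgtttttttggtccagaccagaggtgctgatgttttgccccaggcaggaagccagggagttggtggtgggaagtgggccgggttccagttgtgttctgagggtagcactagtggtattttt

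The CAMP promoter (chr3:48264644-48264836) is shown because it was the member promoter with a peak in the most libraries, and its capitals are a PU.1 match. The region 8.5 kb downstream of the ARG1 TSS (chr6:131902771-131902970) was the sole member region with a match to DR5, the spaced repeat bound by retinoic acid receptors, and the second run of capitals is a CEBP match.
CAMP promoter: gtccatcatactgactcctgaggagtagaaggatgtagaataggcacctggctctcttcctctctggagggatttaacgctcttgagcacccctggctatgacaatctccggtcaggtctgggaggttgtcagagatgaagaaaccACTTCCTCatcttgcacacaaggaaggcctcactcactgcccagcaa
ARG1, 8.5 kb downstream: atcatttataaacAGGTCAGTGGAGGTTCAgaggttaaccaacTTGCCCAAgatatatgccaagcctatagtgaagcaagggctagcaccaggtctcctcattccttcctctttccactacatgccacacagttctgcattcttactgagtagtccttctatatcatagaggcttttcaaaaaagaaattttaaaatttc

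The first comparison asked whether more or less of each gene window was open after ATRA, measured as the base pairs that peaks covered in each library. A gene was called more covered where both ATRA libraries lay above both control libraries. By this rule 5 of the 8 genes were more covered in the ATRA-treated cells (CAMP, LCN2, MMP8, MMP9 and OLFM4) and 0 were less covered. Of the 19412 protein-coding genes with a peak in their window, 46.2% were more covered and 1.18% less covered by the same rule, so a high share of all genes was called and the count of granule genes is not particular to them. The median difference between the group means was 908.5 bp over the 8 genes and 680 bp over all genes with a peak, and the median ratio of ATRA to control was 1.76 over the 8 genes and 1.49 over all genes. With 2 libraries against 2, the two-sided exact permutation test over the 6 assignments cannot give a p-value under 0.33, which is the value for each of the 5 genes, so no difference could pass a threshold.

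**Figure D1:**
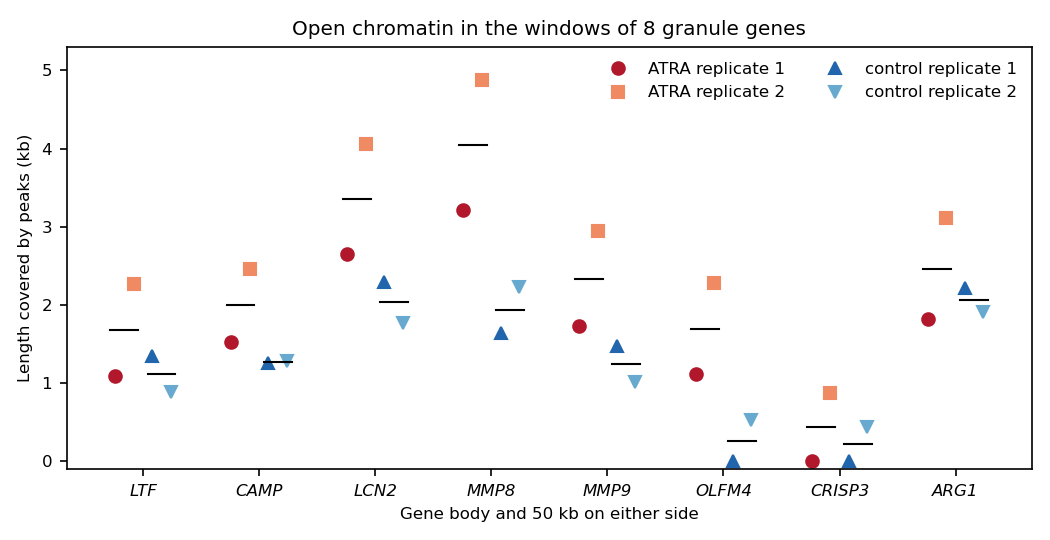
Length covered by peaks (kb, vertical axis) in the window of each gene (horizontal axis). Each symbol is 1 library and each black line a group mean of 2 replicates. ATRA replicate 2 is the highest library at all 8 genes, and both ATRA libraries lie above both control libraries at CAMP, LCN2, MMP8, MMP9 and OLFM4.

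MMP8, the neutrophil collagenase of specific granules, had the largest difference of the 8. Its window on chromosome 11 had 3220 bp covered in ATRA replicate 1 and 4873 bp in ATRA replicate 2, against 1641 and 2224 bp in the control libraries. The group means were 4047 ± 1169 bp and 1933 ± 412 bp (SD, n = 2 each), a ratio of 2.09. The groups did not overlap, and the difference was above that of 92.8% of all genes with a peak. The number of peaks in the window was also apart, with 12 and 11 in the ATRA libraries against 5 and 7 in the control libraries. With only the upper 50% of each list by score, the groups overlapped at MMP8.

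OLFM4, which encodes the glycoprotein olfactomedin 4 of a subset of specific granules, had little coverage in the control cells. The 2 ATRA libraries had 1114 and 2277 bp covered, and the control libraries 0 and 530 bp. The means were 1696 ± 822 bp and 265 ± 375 bp (SD, n = 2 each), with no overlap between the groups and a difference above that of 80.6% of genes. The ratio of the means, 6.40, rests on a control library with no peak in the window.

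MMP9, the gelatinase for which gelatinase granules are named, had 1726 and 2949 bp covered in the ATRA libraries against 1477 and 1017 bp in the control libraries. Its groups did not overlap, the ratio of the means was 1.87, and the difference was above that of 69.7% of genes. LCN2, which encodes the iron-siderophore binding protein lipocalin 2, had 2658 and 4053 bp against 2298 and 1769 bp, a ratio of 1.65. CAMP, which encodes the precursor of the antimicrobial peptide LL-37, had 1528 and 2464 bp against 1256 and 1283 bp, a ratio of 1.57. At MMP9, LCN2 and CAMP, ATRA replicate 1 lay close above the higher control library. The differences at LCN2 and CAMP were above those of 77.6% and 52.7% of genes.

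The remaining 3 genes had groups that overlapped. LTF, which encodes the iron-binding protein lactoferrin, had 1094 and 2274 bp in the ATRA libraries against 1350 and 885 bp, with 1 control library above ATRA replicate 1. ARG1, which encodes the arginine-degrading enzyme arginase 1, had 1817 and 3111 bp against 2220 and 1908 bp, and both control libraries lay above ATRA replicate 1. CRISP3, which encodes a cysteine-rich secretory protein of specific granules, had 0 and 879 bp against 0 and 440 bp, so only the second replicate of each group had a peak at all. The two-sided exact permutation p was 0.667 for LTF and 1 for ARG1 and CRISP3, in a test that could not pass a threshold at any gene.

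**Figure D2:**
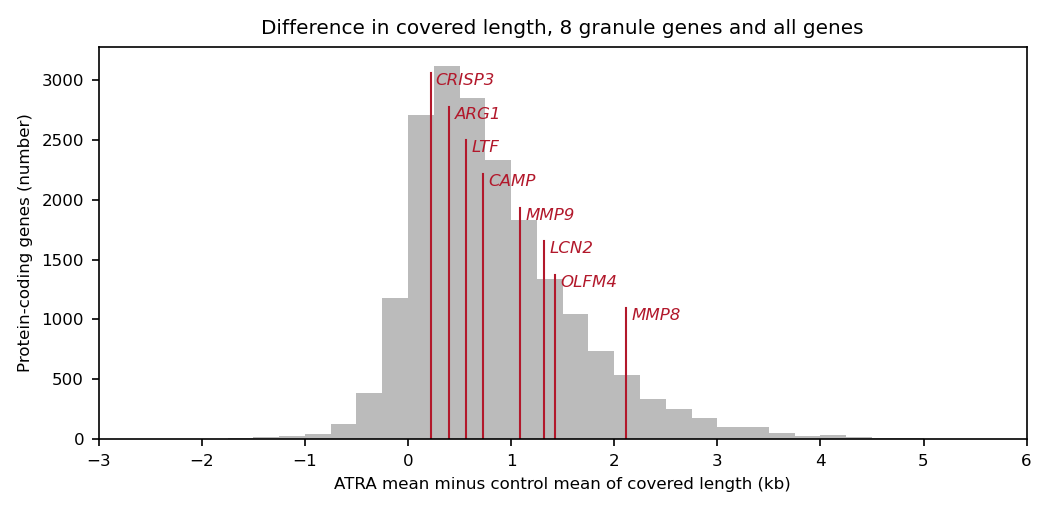
Number of protein-coding genes (vertical axis) by the difference between the ATRA mean and the control mean of covered length (kb, horizontal axis), with each of the 8 granule genes as a red line whose height has no meaning. Most genes lie above 0, and the granule genes run from CRISP3, above 21.2% of genes, to MMP8, above 92.8%.

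ATRA replicate 2 had the most base pairs covered at all 8 genes, as it had over the whole genome. As a share of the base pairs that each list covers, 3 of the genes (MMP8, MMP9 and OLFM4) had both ATRA libraries above both control libraries, beside 24.9% of all genes, and ARG1 had both below, beside 20.5%. On that scale MMP8 had 184 and 154 bp per Mb of list in the ATRA libraries against 96.2 and 136 in the control libraries, and ARG1 had 104 and 98.4 against 130 and 117. CAMP (87.3 and 77.9 against 73.6 and 78.6) and LCN2 (152 and 128 against 135 and 108) overlapped between the groups. The number of peaks per window gave the same 3 genes, beside 23.0% of all genes. With windows of 10 kb CAMP and OLFM4 were not called, and with 100 kb LCN2 and OLFM4 were not, while MMP9 was called under every alternative that was run. Against ATRA replicate 1 alone, whose list covered 17.5 Mb, the 2 control libraries were lower at CAMP, LCN2, MMP8, MMP9 and OLFM4 and higher at ARG1. Of all genes, 47.6% were more covered and 26.4% less covered with ATRA replicate 2 left out.

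The second comparison asked which single regions opened or closed, by the presence of a peak in each library. Of the 55 regions, 9 had a peak in both ATRA libraries and in neither control library, which is 16.4% of them beside 8.94% of all 78063 regions. By contrast, 2 had a peak in both control libraries and in neither ATRA library, 3.64% beside 3.37% of all regions. Another 15 regions had a peak in all 4 libraries (27.3%, beside 30.3% of all regions). A further 16 had a peak in a single library (29.1%, beside 33.4% of all regions), 10 of them in ATRA replicate 2. Over all regions, 14925 of the 26090 with a peak in a single library had it in ATRA replicate 2. Most regions lay away from start sites, with 3 at a promoter of a granule gene, 9 at a promoter of another gene and 43 at no promoter. By position, 36 were intergenic, 16 intronic and 3 exonic or in a UTR.

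**Figure D3:**
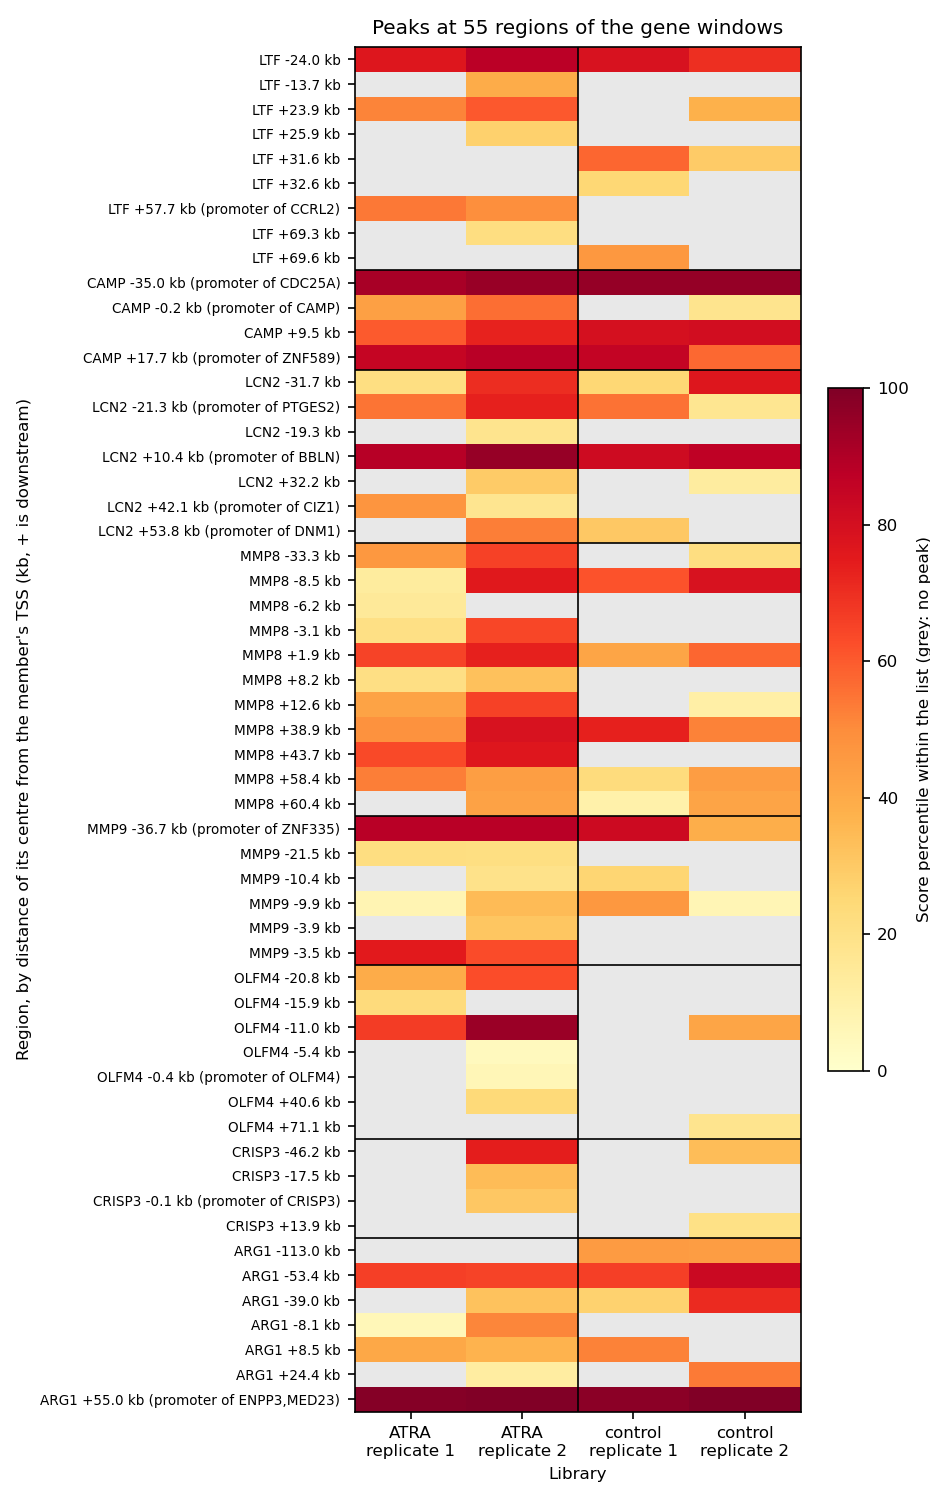
Score percentile of the peak at each of the 55 regions (rows, ordered along each gene by the distance of the centre from its TSS) in the 4 libraries (columns), on a colour scale from 0 to 100, with grey where the library had no peak. The rows coloured in both ATRA columns and grey in both control columns number 9, and 15 rows are coloured in all 4 columns.

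The peaks were ranked by the score within their own list, given here as a percentile from 0 to 100, because scores of different lists cannot be set side by side. MMP8 held 3 of the 9 regions found only in the ATRA libraries. The region 43.7 kb downstream of its TSS, which is intergenic and whose nearest gene by TSS is MMP27, was at percentile 63.6 in ATRA replicate 1 and 76.5 in ATRA replicate 2. The region 3.1 kb upstream was at 20.6 and 64.1, and an intronic region 8.2 kb downstream at 20.8 and 32.6. The first of these was in the upper 50% of both lists, and the other 2 were low in ATRA replicate 1.

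MMP9 held 2 such regions, both upstream. The region 3.5 kb upstream of its TSS was at percentile 75.4 and 63.1 in the ATRA libraries, with peaks of 279 and 416 bp. The region 21.5 kb upstream was at 21.8 and 21.5, and its central 200 bases hold a CTCF match. The closer region was thus in the upper 50% of both ATRA lists with no counterpart in either control list, and the distant one was low in both. A region 9.9 kb upstream had a peak in all 4 libraries, at 7.1 and 34.4 in the ATRA libraries and 46.3 and 6.3 in the control libraries, with groups that overlapped.

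OLFM4 held 1 such region, 20.8 kb upstream, at percentile 39.1 and 62.5. Its highest-ranked region, 11.0 kb upstream, was at 66.7 and 94.5 in the ATRA libraries and at 41.6 in control replicate 2, and control replicate 1 had no peak there. It was also wider in the ATRA libraries, with 575 and 939 bp against 306 bp. Outside these 2 regions, the other 5 OLFM4 regions each had a peak in a single library, 3 of them in ATRA replicate 2.

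**Figure D4:**
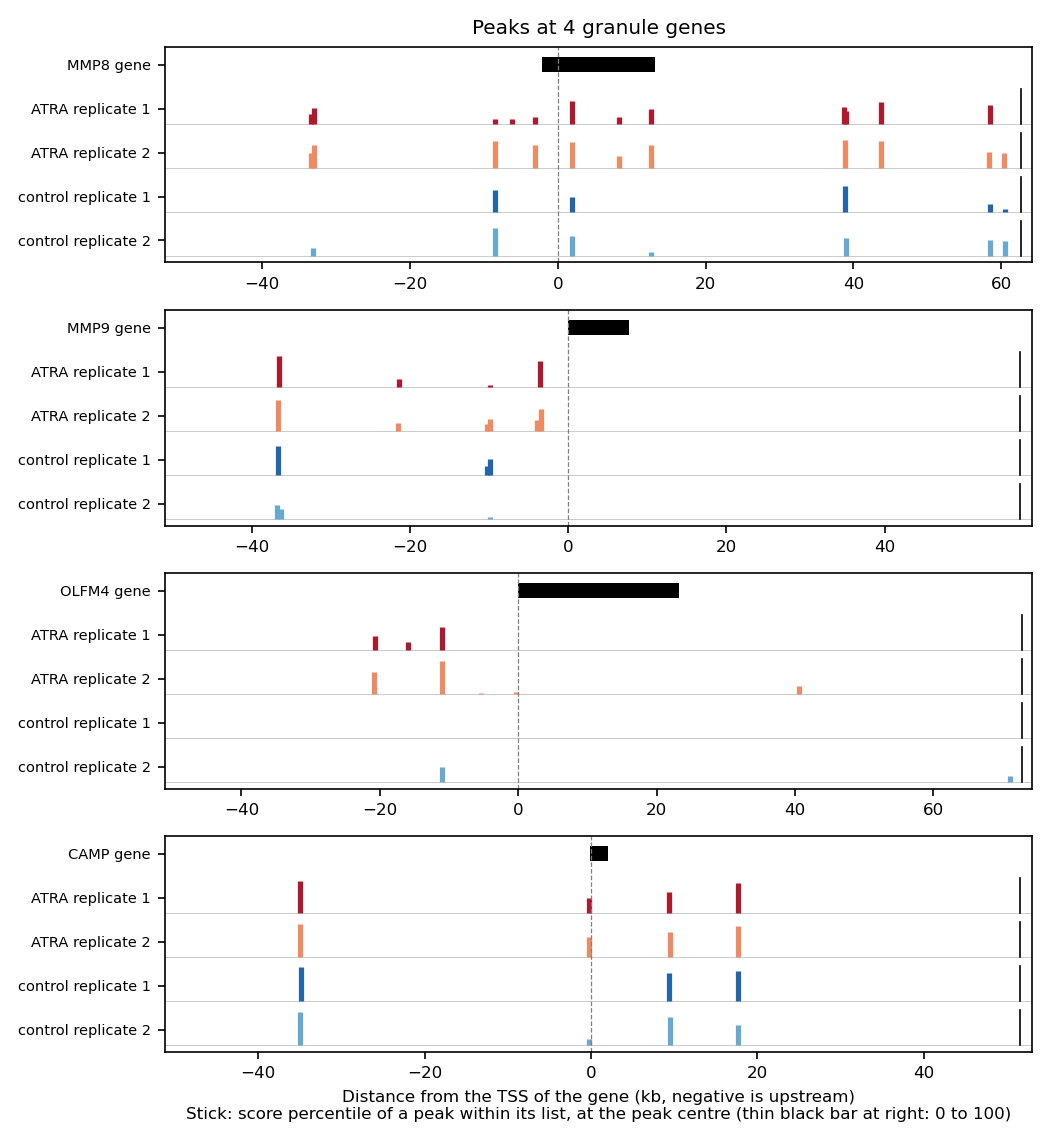
Peaks in the windows of MMP8, MMP9, OLFM4 and CAMP, by distance from the TSS (kb, horizontal axis; negative is upstream), with 1 row per library and the gene body as a black bar. The height of a stick is the score percentile of the peak (thin black bar at right: 0 to 100), and the sticks 3.5 kb upstream of MMP9, 43.7 kb downstream of MMP8 and 20.8 kb upstream of OLFM4 stand only in the ATRA rows.

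Of the remaining 3 regions found only in the ATRA libraries, 2 lay at promoters of neighbours and 1 in an intron of ARG1. In the LTF window, the promoter of CCRL2, a chemokine-receptor-like gene, was at percentile 54.2 and 49.0. In the LCN2 window, the promoter of CIZ1 was at 47.0 and 17.4. The ARG1 region, 8.1 kb upstream of the main TSS and in an intron of a longer ARG1 transcript, was at 5.5 and 51.2, so it was close to the bottom of the list of ATRA replicate 1. CAMP and CRISP3 had no region of this kind.

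The 2 regions found only in the control libraries were at LTF and ARG1. The LTF region, intergenic and 31.6 kb downstream of the TSS, was at percentile 57.4 in control replicate 1 and 29.6 in control replicate 2. The ARG1 region was at 45.0 and 44.5 and lay 10.7 kb upstream of the first TSS of ARG1 in the annotation, far from the main one. The LTF and ARG1 windows thus each had 1 region of either kind.

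Among the 9 regions found only in the ATRA libraries, the median percentile was 39.1 in ATRA replicate 1 and 51.2 in ATRA replicate 2, beside 32.7 and 43.8 over all 6976 such regions. Their median GC content was 50% beside 46%. The median widths were 279 and 416 bp, beside 279 and 399 bp. These medians are descriptions of 9 regions, and single regions lay on either side of the genome-wide medians in both ATRA libraries.

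At the start sites of the granule genes themselves, few peaks were found. LTF, LCN2, MMP8, MMP9 and ARG1 had no promoter peak in any library, as did 44.1% of all protein-coding genes. The CAMP promoter had a peak in 3 libraries, at percentile 43.6 and 56.1 in the ATRA libraries and 17.6 in control replicate 2, with none in control replicate 1. The promoters of OLFM4 and CRISP3 had a peak only in ATRA replicate 2, at percentile 6.2 and 30.5. Outside ATRA replicate 2, no library had a peak at more than 1 of the 8 promoters.

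In 4 of the 8 windows (ARG1, CAMP, LCN2 and MMP9) the region with the highest percentile in any library was a promoter of a neighbouring gene. In the other windows it lay at no promoter. At LTF it was a region 24.0 kb upstream of the main TSS with a peak in all 4 libraries, at 76.7 and 87.8 in the ATRA libraries and 78.7 and 69.9 in the control libraries, with groups that overlapped. At CRISP3 it was a region 46.2 kb upstream, at 74.0 in ATRA replicate 2 and 33.7 in control replicate 2. At MMP8 it was a region 8.5 kb upstream, at 13.0 and 75.6 in the ATRA libraries and 61.5 and 78.9 in the control libraries, which overlapped, and at OLFM4 it was the region 11.0 kb upstream given above.

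Of 16 other genes with a TSS in the windows, 7 had a promoter peak in all 4 libraries, 4 in some and 5 in none. Promoters at any TSS of a gene were counted, and those of SLC25A25 had peaks only outside the LCN2 window. The shared promoter of MED23 and ENPP3 in the ARG1 window was at percentile 98.6, 99.6, 97.6 and 99.4, in the order ATRA replicates 1 and 2, control replicates 1 and 2. In the same order, the promoter of CDC25A in the CAMP window was at 91.4, 94.6, 95.6 and 95.4. Of the 15 regions with a peak in all 4 libraries, 6 were at promoters of other genes, and in ATRA replicate 1 the MED23 and ENPP3 promoter made up 889 of the 1817 bp covered in the ARG1 window.

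In the regions with a peak in all 4 libraries, the third comparison set the percentiles of the groups against each other. Of these 15, 3 ranked higher in both ATRA libraries than in either control library, which is 20% beside 29.2% of all 23653 such regions, and 2 ranked lower, 13.3% beside 12.8%. The intronic MMP8 region 1.9 kb downstream of its TSS was the one of the 3 within a granule gene, at 64.9 and 73.4 in the ATRA libraries against 41.7 and 57.7. The other 2 were the promoters of BBLN in the LCN2 window (88.6 and 95.1 against 81.9 and 86.4) and of ZNF335 in the MMP9 window (88.0 and 88.2 against 82.4 and 38.7). Both regions that ranked lower were in the CAMP window, the CDC25A promoter and a region 9.5 kb downstream of the CAMP TSS, at 59.9 and 72.8 against 79.4 and 80.6. Neither share stood far above that of all regions with a peak in every library. With the same number of top-scoring peaks per list, 2 of 14 such regions ranked higher, beside 22.61% of all. In that setting 3 of 14 ranked lower, beside 20.92% of all. With lists of equal length, higher ranks thus no longer outnumbered lower ones at the granule genes.

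The central 200 bases of each region were searched on both strands for 7 motifs, of which CTCF and DR5 are given by name. The GATA motif (AGATAA or TGATAA) was in 6 of the 55 regions (10.9%) and in 18.8% of all regions. PU.1 (GAGGAAGT) was in 7 (12.7%, beside 8.94%), CEBP (TTGCNNAA) in 4 (7.27%, beside 12.3%) and RUNX (AACCACA) in 3 (5.45%, beside 8.55%). CTCF was in 6 (10.9%, beside 5.87%), AP-1 (TGACTCA or TGAGTCA) in 1 (1.82%, beside 5.72%) and DR5 in 1 (beside 0.0974% of all regions). A match is a description of the letters and not a site of binding.

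Over the genome, 43.7% of the regions found only in the control libraries held a GATA match, against 14.3% of those found only in the ATRA libraries. Of the 9 regions at the granule genes found only in the ATRA libraries, 2 held a PU.1 match (MMP9 and ARG1), and 1 each held a CEBP, a RUNX, a GATA and a CTCF match. Over all regions found only in the ATRA libraries, the shares were 13.3% for PU.1, 15.3% for CEBP, 12.0% for RUNX and 3.18% for CTCF. The DR5 match was in an intron shared by ARG1 and MED23, in a region at percentile 40.8 and 36.8 in the ATRA libraries and 52.3 in control replicate 1, with no peak in control replicate 2. That region thus had peaks in libraries of both groups.

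Genes of other granules and regulators were compared by the same measure of covered length, by which 46.2% of all genes were more covered and 1.18% less. Of 14 other specific granule genes, 13 had a peak, 7 were more covered in the ATRA-treated cells and 0 less, with CYBB, the large subunit of the NADPH oxidase, at 6312 and 7935 bp against 3235 and 3806 bp. ITGAM, the integrin CD11b, had 3011 and 6012 bp against 1539 and 2294 bp, and FOLR3, a secreted folate receptor, had 3657 and 5982 bp against 2552 and 2594 bp. These 3 had the largest differences of that list. Of 4 other gelatinase granule genes, 3 were more covered (ADAM8, FCN1 and SLC11A1) and 0 less. Of 11 azurophil granule genes, 4 were more covered (AZU1, CD63, ELANE and PRTN3) and 0 less, and MPO, which encodes myeloperoxidase, had 2726 and 7079 bp against 4845 and 6801 bp with groups that overlapped. Of 7 regulators, 4 were more covered (CEBPA, CEBPD, RARA and SPI1) and 0 less, with SPI1, which encodes PU.1, at 6290 and 9675 bp against 5851 and 4078 bp. CEBPE, known for its part in specific granule formation, had 3845 and 8362 bp against 5461 and 5093 bp, and its groups overlapped.

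These counts changed with the scale. As a share of the base pairs that each list covers, 24.9% of all genes were more covered and 20.5% less. On that scale 6 of the 13 other specific granule genes were more covered and 1 (HP) less, and 1 of the 4 other gelatinase granule genes (FCN1) was more covered and 0 less. Of the 11 azurophil granule genes, 3 were more covered (CD63, ELANE and PRTN3) and 3 less (BPI, MPO and RNASE2). Of the 7 regulators, 1 was more covered (CEBPA) and 3 less (CEBPE, CUX1 and GFI1), while CEBPD, RARA and SPI1 overlapped between the groups. With such counts no list is shown to differ from all genes.

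The median difference was 733.5 bp for the other specific granule genes, 1268 bp for the other gelatinase granule genes, 538 bp for the azurophil granule genes and 826.5 bp for the regulators, beside 680 bp over all genes. The median ratios were 1.76, 1.41, 1.48 and 1.61 in the same order, beside 1.49 over all genes.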

How the data were processed

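The data were the peak lists of 4 ATAC-seq libraries, with groups and replicate numbers taken from the sample titles. According to the processing notes of the submitters and the stated methods, the authors trimmed adapters, aligned reads to hg19 and called peaks with MACS2. Peaks were called per library, not on pooled reads, at default settings. The notes name cutadapt and Bowtie2, while the methods name Bowtie for the alignment. A shift to the Tn5 cut site, the treatment of PCR duplicates and a blacklist filter are not given in the sources used here, and could move peak edges or add peaks in repeats. The deposited lists give a score per peak from 50.0 to 3100, of unstated scale, used here only for percentiles within a list. Between 2 and 4 peaks of each list were at the highest score. As there are no read counts, depth was unknown, no count model could be fitted and no interval was computed. The titles and methods call the samples replicates, and the p-values rest only on exchanging group labels among these libraries.

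Genes and TSS came from GENCODE release 44 on GRCh37, with 1-based coordinates. The ARG1 body includes a transcript that starts far upstream of its main TSS, so its window is long. Covered base pairs were those of peaks within the gene body and 50 kb on either side, and peaks were merged across lists at 1 bp of overlap. Groups were compared by non-overlap and by the two-sided exact permutation test. The percentiles, non-overlap calls and merging were tested on simulated data with planted changes. Markers of other cell types were fixed as a list, of which some, and the sequence of 1 region, are not reported here. All 8 genes were named. Of their regions, those at the promoter of a granule gene, those in both libraries of 1 group and neither of the other, and the region with the highest percentile of each window were named, and from the lists at most 3 genes by the largest difference. Genes outside this rule (MPO, SPI1, CEBPE and those called in a list), the ARG1 region with the DR5 match and the regions that changed in rank were chosen after their values were seen. The 8 genes, the lists, the motifs and the comparisons were chosen with earlier results of these data known. Python 3.11.15, numpy 2.4.6, pandas 2.3.3, scipy 1.17.1, pysam 0.24.0, samtools 1.23.1 and matplotlib 3.10.9 were used. Alternatives were the same number of top-scoring peaks per list, the upper 50% by score, peaks of 200 bp, windows of 10 kb and 100 kb, an overlap of at least 50% of the shorter peak, leaving out each replicate and a replicate block. Covered length as a share of the list and the number of peaks were added after seeing the data.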

Additional observations from a re-analysis of the deposited data

How the results depend on the processing

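The number of genes more covered after ATRA was 5 (beside 46.2% of all genes), and 3 with windows of 100 kb (beside 48.5%). It was also 3 (MMP8, MMP9 and OLFM4) with covered length as a share of the list and with the number of peaks. These alternatives, both chosen after seeing the data, called 24.9% and 23.0% of all genes. With 1 library left out the number was 5 to 8, with 8 without ATRA replicate 1. That setting called 93.6% of all genes, and leaving out another library called 47.6% to 61.3%. The number less covered was 0 (beside 1.18% of all genes), and 1 (ARG1) as a share of the list (beside 20.5%). It was 0 to 1 with 1 library left out, ARG1 being called without ATRA replicate 2 (beside 26.4%). Regions found only in the ATRA libraries numbered 9 of 55, beside 8.94% of all regions. They were 4 of 26 with windows of 10 kb and 14 of 92 with 100 kb, beside the same share. In the upper 50% by score they were 4 of 31 (beside 9.37%), and with 1 library left out 10 to 19. They were 19 of 53 without ATRA replicate 1 (beside 29.2%) and 15 of 54 without control replicate 2 (beside 14.6%). Regions found only in the control libraries numbered 2 of 55, beside 3.37% of all regions. They were 1 of 26 with 10 kb (beside 3.37%) and 0 of 31 in the upper 50% by score (beside 4.20%). With 1 library left out they numbered 2 to 4. They were 4 without ATRA replicate 2 (beside 10.9%), without control replicate 1 (beside 9.74%) or without control replicate 2 (beside 8.61%). Shared regions ranked higher numbered 3 of 15, beside 29.24% of all shared regions. They were 13 of 28 with 100 kb (beside 29.24%) and 1 of 7 in the upper 50% by score (beside 29.58%). Shared regions ranked lower numbered 2 of 15, and 1 of 7 with 10 kb (both beside 12.77%). With 1 library left out, 9 of 17 ranked higher and 3 lower without ATRA replicate 1 (beside 52.93% and 19.09%). In the same order they were 4 and 5 of 15 without ATRA replicate 2 (beside 34.26% and 36.81%). Without control replicate 1 they were 12 and 5 of 20 (beside 44.03% and 27.42%). Without control replicate 2 they were 5 and 4 of 16 (beside 47.15% and 22.01%). With fewer libraries the rule of non-overlap is easier to meet. With the same number of peaks per list, the genes more covered were the same 5. With windows of 10 kb they were ARG1, LCN2, MMP8 and MMP9, with peaks of 200 bp CAMP was not called, and in the upper 50% by score LTF was called and MMP8 was not. The same number of peaks called 43.8% of all genes, 10 kb 41.8%, peaks of 200 bp 23.1% and the upper 50% by score 44.4%. The cause of the other changes was not tested.

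Whether same-numbered libraries were paired is not stated in the titles. Over 19412 genes, the difference in covered length between replicates of the ATRA group had a correlation of -0.0528 with that of the control group. That value cannot decide the pairing, because the list of ATRA replicate 2 covered far more base pairs than the others. With the replicate block, which asks for the same direction in both same-numbered pairs, 5 genes were more covered, 0 less covered, 4 shared regions ranked higher and 4 ranked lower. Over all genes and all shared regions, the block called 54.6%, 2.19%, 40.5% and 21.4% in that order.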
